A study of Danio rerio with 13 samples.

Results

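The genes described here were 3 copies of mfap4 in zebrafish skin, of 32105 genes in the table of read counts. They were 2 rows that carry the symbol MFAP4, ENSDARG00000038683 (called copy A here) and ENSDARG00000090783 (copy B), and mfap4.8 (ENSDARG00000093877). They were picked by gene ID with their levels in mutant and wild-type skin already known, so their levels and fold changes are given as a description, without p-values. The same table held 10 further rows with an mfap4 symbol, which were used to set the 3 copies in their family.

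Polyadenylated RNA from the skin of male AB-strain zebrafish aged 3 months was sequenced in 13 samples of 3 genotypes. Fish homozygous for the nonsense allele hu3430 of tert, the gene of the catalytic telomerase protein, are called HOM (AB tert(-/-), n = 3). Heterozygous fish are called HET (AB tert(+/-), n = 5), and AB fish without the allele are called WT (n = 5). The allele is carried in the germ line and is thus not confined to skin or to macrophages. The study used telomerase mutants as a model of telomeric ageing, and the comparison of the 3 genotypes asks how transcript levels differ with the loss of 1 or both functional tert copies. The group sizes equal the numbers of animals in the study's methods, but neither labels nor methods tie a sample to a named fish, so p-values below measure only the spread between these samples, which may be technical in part.

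In zebrafish, mfap4 is used as a marker of macrophages, the phagocytes that take up microbes and dead cells, and its promoter drives reporter transgenes in these cells. Resident macrophages of the skin lie among the keratinocytes of the epidermis and in the dermis. The mammalian MFAP4 protein carries a fibrinogen-like domain, is secreted, and binds elastin and the fibrillin microfibrils of the extracellular matrix. The zebrafish genome holds a group of closely related mfap4 genes in place of a single gene.

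Total counts ran from 15709310 in HOM3 to 30249877 in HET4, and the mitochondrially encoded genes took 19.9% to 56.4% of them, with both ends of that range in HOM libraries (HOM1 and HOM3). Levels below are CPM, which are counts relative to library size, with library sizes scaled by trimmed mean of M-values. tert itself had 15.7, 16.4 and 37.3 CPM in the HOM samples, 14.5 to 40.5 CPM in HET and 7.09 to 13.4 CPM in WT, and since a nonsense allele need not remove the transcript, this does not check the labels. The epidermal keratin krt5 was at 9613 to 13962 CPM in HOM, 6613 to 12864 CPM in HET and 4013 to 20532 CPM in WT, so this defining marker of skin epithelium was abundant in every sample. A list of 15 liver genes, 14 of them tested, summed to 35.7 to 529 CPM in HOM, 160 to 519 CPM in HET and 63.4 to 31179 CPM in WT, where WT1 (3623 CPM) and WT5 (31179 CPM) stood highest. Without WT1 and WT5 the log2 fold changes in HOM against WT described below were -2.07 for copy A, -0.92 for copy B and 4.18 for mfap4.8. No gene passed an adjusted p of 0.05 in edgeR's quasi-likelihood test in any of the 3 comparisons (percent of genes called: 0), while an unadjusted p under 0.05 was reached by 2.73% of genes when HOM was set against WT, by 5.49% for HET against WT and by 2.74% for HOM against HET. DESeq2 called 40 genes (0.207%) between HOM and WT, 105 (0.517%) between HET and WT and 1 (0.00379%) between HOM and HET.

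Copy A had the lowest levels in HOM skin, without overlap with either of the other genotypes. Its levels were 1.28, 2.47 and 0.331 CPM in HOM1 to HOM3. In HET they were 10.5, 20.2, 16.5, 4.09 and 7.51 CPM, and in WT 7.73, 2.82, 10.2, 4.76 and 3.78 CPM. Every HOM sample thus lay below every HET and every WT sample, although the highest HOM sample (2.47 CPM) and the lowest WT sample (2.82 CPM) were close. These levels rest on 55, 50 and 4 reads in HOM, on 119 to 332 reads in HET and on 69 to 289 reads in WT. The exact Poisson 95% interval of the 4 reads in HOM3 was 1.09 to 10.2 reads, and like all such intervals here it covers counting error only. For the closest pair the intervals overlapped, at 37.1 to 65.9 reads in HOM2 and 53.7 to 87.3 reads in WT2.

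The mean of copy A was 1.36 ± 1.07 CPM in HOM (SD, n = 3), 11.8 ± 6.56 CPM in HET (n = 5) and 5.86 ± 3.05 CPM in WT (n = 5). The log2 fold change was -2.08 ± 0.67 (SE) in HOM against WT, -3.08 ± 0.71 in HOM against HET and 0.999 ± 0.53 in HET against WT. The first was known when the copy was picked, and the other comparisons share its HOM or WT samples. Without HOM3, where copy A was lowest, the values were -1.65 against WT and -2.65 against HET. Over all genes tested, every HOM sample lay below every HET and WT sample for 33 genes (0.172%), and nothing is read from this share, since the choice of the copy used the same samples. The separation of HOM held under the other scalings as well. With library totals alone, copy A reached 1.94 CPM at most in HOM, against at least 3.93 CPM in HET and 3.49 CPM in WT. In libraries counted without the mitochondrially encoded genes, HOM again lay below the lowest values of HET (6.61 CPM) and WT (4.54 CPM).

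**Figure D1:**
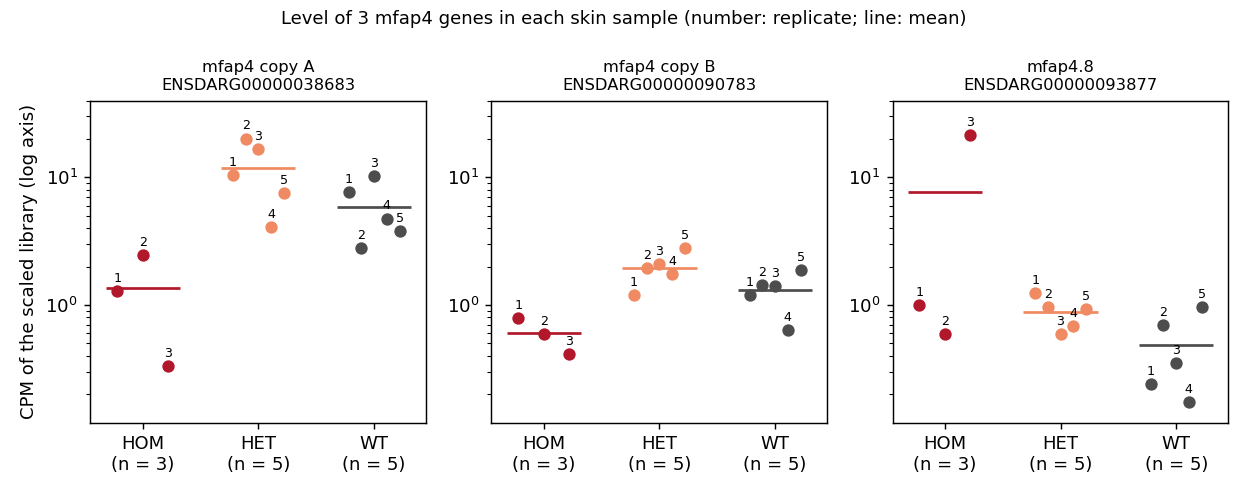
Levels of mfap4 copy A, copy B and mfap4.8 in scaled CPM on a log axis, with 1 numbered point per sample for HOM (n = 3), HET (n = 5) and WT (n = 5) and a bar at each group mean. Copy A shows no overlap between HOM and the other genotypes, copy B overlaps with WT only through WT4, and mfap4.8 has 1 sample, HOM3, at 21.6 CPM.

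Copy B followed the same order of genotypes at a lower level. It had 0.791, 0.594 and 0.414 CPM in HOM1 to HOM3. It had 1.19, 1.94, 2.09, 1.75 and 2.78 CPM in HET, and 1.21, 1.43, 1.41, 0.639 and 1.89 CPM in WT. Every HOM sample lay below every HET sample, and 4 of the 5 WT samples lay above every HOM sample, the exception being WT4. The reads behind these levels were 34, 12 and 5 in HOM, 20 to 74 in HET and 11 to 51 in WT. The means were 0.600 ± 0.189 CPM in HOM, 1.95 ± 0.575 CPM in HET and 1.32 ± 0.453 CPM in WT. The log2 fold change was -1.10 ± 0.41 in HOM against WT, -1.67 ± 0.41 in HOM against HET and 0.56 ± 0.33 in HET against WT. Without HOM3 it was -0.91 against WT and -1.48 against HET. Over all genes, every HOM sample lay below every HET sample in 1.53% of genes and below every WT sample in 0.742%. HET overlapped with WT in copies A and B, and every HET sample lay above every WT sample in 0.366% of genes and below in 0.199%.

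In mfap4.8 the genotype means followed a single library. HOM3 had 21.6 CPM, from 261 reads, whereas HOM1 had 1.0 CPM and HOM2 0.594 CPM. HET had 1.25, 0.972, 0.588, 0.687 and 0.938 CPM, and WT had 0.242, 0.695, 0.353, 0.174 and 0.963 CPM. HOM1 was above all WT samples and within the range of HET, and HOM2 was within the ranges of HET and WT. Every HOM sample lay above every WT sample in 0.439% of all genes and above every HET sample in 0.972%, and mfap4.8 was not among them. Outside HOM3, mfap4.8 rested on 43 reads or fewer in each library, and on 3 reads in WT4. The mean of 7.74 ± 12 CPM in HOM therefore had an SD larger than itself, against 0.887 ± 0.260 CPM in HET and 0.485 ± 0.334 CPM in WT. The log2 fold change was 3.96 ± 0.95 in HOM against WT, 3.10 ± 0.93 in HOM against HET and 0.85 ± 0.85 in HET against WT. Without HOM3 it was 0.72 against WT and -0.13 against HET, so that the direction against HET turned. HOM3 had the highest level of all 13 samples in 4.8% of genes and the lowest in 6.25%. HOM3 was also the library with the fewest counts, 6851146 of them outside the mitochondrially encoded genes, and with the largest mitochondrial share (56.4%).

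Per kilobase of transcript, a scale that adjusts levels for gene length, copy A was above copy B in each genotype. The means were 0.811 against 0.385 CPM per kb in HOM, 7.0 against 1.25 in HET and 3.49 against 0.845 in WT. By the same measure mfap4.8 averaged 6.92 CPM per kb in HOM, 0.793 in HET and 0.434 in WT. The lengths behind this scale were 1679 bases for copy A, 1557 for copy B and 1118 for mfap4.8. The part of each length that sets a copy apart from the others was not measured. The order of the copies on this scale may depend on it. In HET and WT the order of mean levels was copy A, copy B and mfap4.8. In HOM the order differed between libraries: mfap4.8 was above copy A per kilobase in HOM1 (0.895 against 0.762) and HOM3 (19.3 against 0.197), and below it in HOM2 (0.531 against 1.47).

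**Figure D2:**
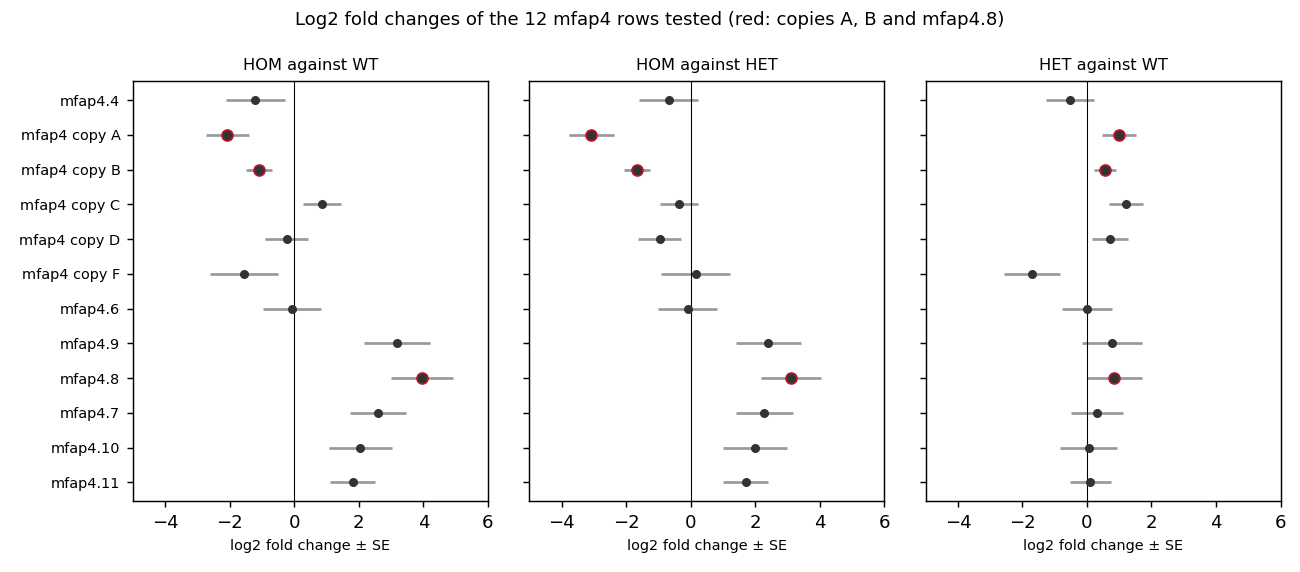
Log2 fold changes with SE bars of the 12 mfap4 rows tested, for HOM against WT, HOM against HET and HET against WT, with copies A, B and mfap4.8 ringed in red. Copy A stands at -2.08 and mfap4.8 at 3.96 in HOM against WT, and the 5 rows mfap4.7 to mfap4.11 lie right of 0 in both comparisons that hold HOM3.

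Reads that match several copies are a limit for every mfap4 row. Per the submitters' processing notes reads were aligned with STAR and counted with featureCounts, but how reads with several matches were treated is not given in the sources used here. The copies' sequences were not compared, and no strand was marked by the kit. Provided that no read was counted in several rows, the sum over all mfap4 rows does not depend on how reads were split between those rows. The sum was therefore set beside the single copies. Only rows with an mfap4 symbol enter it, and 81.8% of IDs had a symbol. Any copy without a symbol would be missing from the sum and the shares. If reads with several matches were left out of the counts, they are missing from the sum and from the shares as well. If they were counted at every match, they enter the sum and the shares repeatedly.

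In the summed level of the 13 mfap4 rows the HOM samples did not lie together below the others. The sum was 22.7, 10.2 and 61.5 CPM in HOM1 to HOM3. It was 23.4, 38.6, 36.5, 13.6 and 26.0 CPM in HET, and 18.7, 16.3, 20.8, 11.2 and 20.6 CPM in WT. HOM2 had the lowest and HOM3 the highest sum of all samples, so the HOM range enclosed the other genotypes. The means were 31.5 ± 26.8 CPM in HOM, 27.6 ± 10.2 CPM in HET and 17.5 ± 4.0 CPM in WT. Without copies A, B and mfap4.8, the other 10 rows summed to 21.8 ± 16.4 CPM in HOM, 13.0 ± 4.14 CPM in HET and 9.86 ± 3.12 CPM in WT. In bulk skin, a difference in the number of macrophages and a difference in mfap4 RNA per macrophage cannot be told apart.

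**Figure D3:**
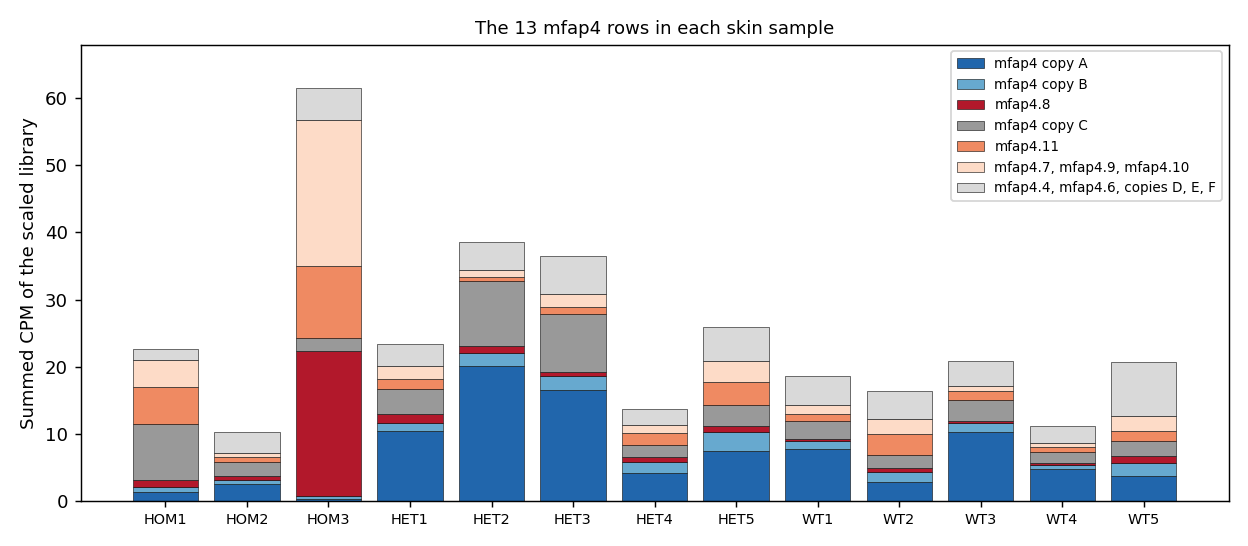
Summed level of the 13 mfap4 rows per sample in scaled CPM, stacked by row or group of rows, for HOM, HET and WT samples. The sum runs from 10.2 CPM in HOM2 to 61.5 CPM in HOM3, and copies A and B make up a thin part of the bar in HOM1 and HOM3.

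The make-up of the sum varied widely between samples. Copy A held 28.9% to 52.3% of the family's reads in HET and 17.3% to 49.0% in WT. Its share was 5.65% in HOM1 (exact binomial 95% interval 4.28% to 7.29%), 24.3% in HOM2 (18.6% to 30.7%) and 0.538% in HOM3 (0.147% to 1.37%). HOM1 and HOM3 thus lay below every other sample, while HOM2 lay within the range of WT. By reads, copy A was the leading row in 10 of 13 samples, all 5 HET, 4 WT and HOM2. The leading row was copy C (ENSDARG00000038681, another row with the symbol MFAP4) in HOM1, with 36.8% of 974 family reads, and mfap4.8 in HOM3, with 35.1% of 743 (31.7% to 38.7%). In WT2, mfap4.11 led with 19.3% of 399 reads. Per kilobase, copy A led in 8 samples, copy C also in HOM2 and mfap4.6 in WT5.

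Copy B held 3.49%, 5.83% and 0.673% of the family's reads in HOM1 to HOM3, against 5.04% to 12.8% in HET and 5.73% to 9.16% in WT. Its share in HOM2 was within the HET and WT ranges, and its shares in HOM1 and HOM3 were below them. Relative to the family, the low level of copy B in HOM2 was therefore matched by a low level of the whole family (10.2 CPM). The share of mfap4.8 was 4.41% in HOM1, 5.83% in HOM2 and 35.1% in HOM3, against 1.61% to 5.33% in HET and 1.29% to 4.67% in WT. HOM2 thus lay just above the HET range, on 12 reads (3.05% to 9.95%).

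In HOM3 the family's reads were divided between the rows in other proportions than in the other samples. The 5 rows mfap4.7, mfap4.8, mfap4.9, mfap4.10 and mfap4.11 made up 87.9% of its family reads (85.3% to 90.1%), against 46.6% in HOM1, 19.9% in HOM2, 6.77% to 29.0% in HET and 12.2% to 37.8% in WT. This grouping was made after the values were seen and carries no test. Each of the 5 rows had its highest level of all samples in HOM3. After mfap4.8, the widest gap to the next sample was in mfap4.7, with 6.54 CPM in HOM3 and 0.629 CPM in the next sample, and in mfap4.10, with 7.45 and 1.54 CPM. The gaps were smaller in mfap4.9 (7.78 and 2.86 CPM) and mfap4.11 (10.7 and 5.63 CPM). At the other end, copy A, copy B and mfap4.4 (ENSDARG00000038682) had their lowest levels in HOM3. mfap4.4 had 0 of 743 family reads there, which allows a share of up to 0.404%, or 0.248 CPM, taking a limit of 3 reads (the exact binomial 95% limit was 0.495%), against 0.582 and 1.39 CPM in HOM1 and HOM2. HOM1 shared part of this pattern: its mfap4.11 held 24.8% of the family reads and its mfap4.9 12.6%, but mfap4.7 and mfap4.8 stayed at 1.64% and 4.41%.

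**Figure D4:**
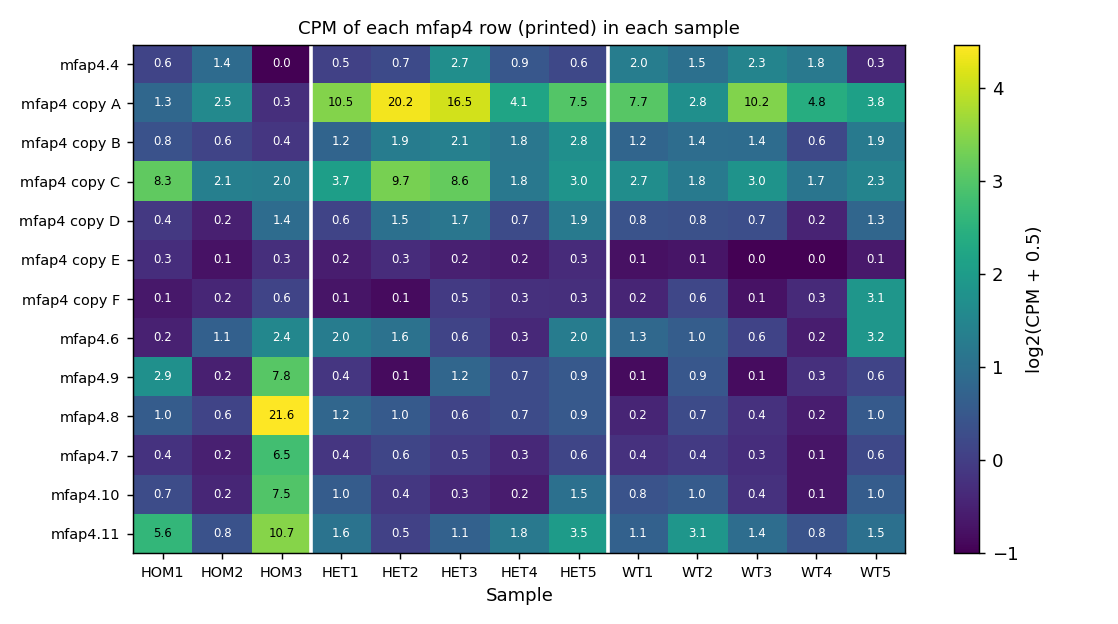
Level of each of the 13 mfap4 rows in each of the 13 samples, printed as scaled CPM and coloured by log2(CPM + 0.5), with HOM, HET and WT samples side by side. The column of HOM3 is bright for mfap4.7 to mfap4.11, with mfap4.8 at 21.6 CPM, and dark for copies A and B and mfap4.4.

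In the order of protein-coding genes on the RefSeq assembly GRCz12tu, mfap4.8, mfap4.7, mfap4.10 and mfap4.11 followed one another directly on chromosome 1, with gpr108 next. All 13 mfap4 genes of that table lay on chromosome 1, among them mfap4.4 and mfap4.6 with other genes between. Copies A and B could not be placed in this order, because the files' IDs ENSDARG00000038683 and ENSDARG00000090783 carry only the family symbol, and mfap4.9 was not placed. gpr108 itself was at 36.7 ± 6.99 CPM in HOM, 39.4 ± 7.40 CPM in HET and 31.8 ± 5.92 CPM in WT, and its highest HOM sample was at 42.5 CPM.

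Of the 10 other mfap4 rows, 9 passed the filter on low counts, copy E (ENSDARG00000089667) being too low. None of the 9 passed an adjusted p of 0.05 in edgeR in any comparison, and DESeq2, which gave no p for mfap4.7, called 0 of the other rows as well. At an unadjusted p under 0.05 in edgeR there were 3 between HOM and WT, 1 between HET and WT and 3 between HOM and HET. Over all genes tested the shares were 2.73%, 5.49% and 2.74% in the same order. In HOM against WT, 5 lay above 0 and 4 below, with a median log2 fold change of 0.86, beside -0.05 over all genes tested. mfap4.7 had 2.59 ± 0.87 (unadjusted p = 0.0115), mfap4.9 3.18 ± 1.03 (unadjusted p = 0.00914) and mfap4.11 1.81 ± 0.70 (unadjusted p = 0.0231) by edgeR, each with an adjusted p of 0.9999. Without HOM3 these values were -0.37 (edgeR unadjusted p = 0.551), 1.99 (edgeR unadjusted p = 0.0888) and 1.01 (edgeR unadjusted p = 0.2). In mfap4.9 HOM1 (2.86 CPM) also lay above every HET and WT sample, as it did in mfap4.11 (5.63 CPM) and in the untested copy E (0.326 CPM), while HOM2 had 0.198 CPM of mfap4.9.

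Of the other rows with the symbol MFAP4, copy C averaged 4.13 ± 3.64 CPM in HOM, 5.36 ± 3.54 CPM in HET and 2.29 ± 0.556 CPM in WT, with a log2 fold change of 0.86 ± 0.58 in HOM against WT and 1.21 ± 0.52 in HET against WT (edgeR unadjusted p = 0.0367, adjusted p = 0.853). mfap4.4 had -1.21 ± 0.91 in HOM against WT, with 0.656 ± 0.696 CPM in HOM, 1.1 ± 0.931 CPM in HET and 1.57 ± 0.780 CPM in WT. Copy D (ENSDARG00000088745) had 0.683 ± 0.640 CPM in HOM, 1.28 ± 0.594 CPM in HET and 0.765 ± 0.364 CPM in WT. It was the row most like copy B within the family by Spearman's rho (0.70 over 13 samples, beside 0.58 between copies A and B). By Pearson's r copy A was the row most like copy B (0.686, beside 0.645 for copy D).

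Most macrophage markers had a log2 fold change above 0 in HOM and in HET against WT, although edgeR called none and the samples overlapped. The list of macrophage markers held 27 genes, all tested and none at 0 in every sample. It summed to 539 to 1881 CPM in HOM, 773 to 1510 CPM in HET and 462 to 2114 CPM in WT, ranges that overlapped widely. A large part of the sum was cd74a, with 198 to 715 CPM in HOM, 273 to 620 CPM in HET and 150 to 1028 CPM in WT. Between HOM and WT, 21 of 27 genes lay above 0 with a median log2 fold change of 0.49, beside 43.2% of all genes above 0 and a median of -0.05. In HET against WT 23 of 27 lay above 0 (median 0.56, beside 45.6% of all genes and a median of -0.04), and in HOM against HET 12 of 27 (median -0.10, beside 48.8% and -0.01). The 27 genes share the same libraries. On the list's mean log2 CPM, centred per gene, WT4 (-0.628) and WT5 (-0.544) lay lowest of all samples. WT1 to WT3 lay at 0.007, 0.069 and -0.109, within the spans of HOM (-0.255 to 0.509) and HET (-0.14 to 0.71). HOM2 (-0.255) lay below WT1 to WT3. edgeR called none of the 27 in any comparison, with 3, 7 and 1 at an unadjusted p under 0.05 in these comparisons. The shares over all genes were 2.73%, 5.49% and 2.74% in the same order. DESeq2 called 2 of the 27 in HET against WT, where it called 0.517% of all genes, namely the myeloid transcription factor spi1a (0.98 ± 0.26, DESeq2 adjusted p = 0.0413) and the granulin grna.1 (1.90 ± 0.50, DESeq2 adjusted p = 0.0413). Copy A had 0.999 ± 0.53 in that comparison, with overlap between HET and WT. It was picked with its WT levels known, so nothing is read from this beside the markers. Some other lists of cell-type markers also had most genes above WT, while others did not. Phagocyte and pan-leukocyte genes were above 0 in 13 of 17 (median 0.42) for HOM and in 16 of 17 (median 0.59) for HET, T and NK cell genes in 5 of 8 (median 0.35) for HOM and 8 of 8 (median 0.50) for HET. Dermal fibroblast genes were above 0 in 8 of 8 (median 0.62) for HOM but in 2 of 8 (median -0.33) for HET. Genes of xanthophores, a pigment cell, were above 0 in 5 of 6 (median 0.92) for HOM and 4 of 6 for HET. Osteoclast genes were so in 4 of 4 (median 0.44) for HOM and 2 of 4 for HET. Interferon response genes were above 0 in 7 of 12 for HOM and 2 of 12 for HET, and neutrophil genes in 3 of 6 for both. Keratinocyte genes were above 0 in 3 of 11 for HOM and in 2 of 11 for HET. Skeletal muscle genes were above 0 in 2 of 10 for HOM and in 5 of 10 for HET, and red blood cell genes in 0 of 5 for both.

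Among the defining macrophage markers, mpeg1 (ENSDARG00000043093), a pore-forming protein of macrophages, had 49.4 ± 39.4 CPM in HOM, 23.7 ± 13.9 CPM in HET and 35.2 ± 21.0 CPM in WT. A second mpeg1 row (ENSDARG00000055290) had another order, with 11 ± 3.14 CPM in HOM, 10.5 ± 3.78 CPM in HET and 6.07 ± 1.81 CPM in WT, and the other (ENSDARG00000078569) had 1.97 ± 2.41 CPM in HOM, 6.57 ± 12 CPM in HET and 2.79 ± 2.82 CPM in WT. The scavenger receptor marco had 11.9 ± 7.85 CPM in HOM, 15.5 ± 6.35 CPM in HET and 11.9 ± 6.86 CPM in WT. csf1ra, a receptor for the macrophage growth factor that also serves pigment cells in zebrafish, had 5.76 ± 3.58 CPM in HOM, 3.31 ± 1.54 CPM in HET and 2.80 ± 1.75 CPM in WT. The transcription factor irf8, which macrophages need to form, had 10.1 ± 6.84 CPM in HOM, 13.4 ± 12.9 CPM in HET and 9.83 ± 8.43 CPM in WT. In mpeg1 (ENSDARG00000043093), marco, csf1ra and irf8 the HOM samples overlapped with both other genotypes. The complement gene c1qc had 7.23 ± 1.72 CPM in HOM, 7.39 ± 1.72 CPM in HET and 4.39 ± 1.44 CPM in WT, and the chemokine receptor cxcr3.2 had 2.92 ± 0.538 CPM in HOM, 3.18 ± 1.14 CPM in HET and 2.03 ± 0.270 CPM in WT. The means of c1qa, c1qb, slc7a7, cd74a and grna.1 were also above WT in HOM. For cd74a they were close, at 445 ± 259 CPM in HOM and 433 ± 354 CPM in WT. The means of csf1rb and timd4 were below WT in HOM. In each of these genes, and in c1qc and cxcr3.2, the HOM samples overlapped with both other genotypes as well. csf1rb had 0.713 ± 0.149 CPM in HOM, 1.19 ± 0.708 CPM in HET and 1.15 ± 0.727 CPM in WT. timd4 had 0.287 ± 0.235 CPM in HOM, 0.589 ± 0.303 CPM in HET and 0.394 ± 0.230 CPM in WT. Markers of neutrophils, the other main phagocytes, summed to 14.5 to 35.9 CPM in HOM, 12.4 to 22.1 CPM in HET and 6.68 to 41.8 CPM in WT over 8 rows. The label of the 3 copies as macrophage genes could not be checked in whole skin, where each transcript is a mean over all cell types.

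Over the 13 samples, no relation between the mfap4 copies and the macrophage list passed the test. The 3 copies were picked with their HOM and WT levels known, and the pooled values use these same samples. The choice can thus shape r, rho and p of the copies, and nothing is concluded from the lack of a relation. Levels were taken as log2(CPM + 0.5) and the list as the mean of its centred log2 CPM, with two-sided permutation tests of 100000 resamples and adjustment over the 4 relations computed. For copy A Pearson's r was -0.02 (permutation p = 0.937, adjusted p = 0.937) and Spearman's rho -0.13 (permutation p = 0.686, adjusted p = 0.686). For copy B r was 0.15 (permutation p = 0.633, adjusted p = 0.844) and rho 0.14 (permutation p = 0.657, adjusted p = 0.686). For mfap4.8 r was 0.20 (permutation p = 0.437, adjusted p = 0.844) and rho 0.21 (permutation p = 0.482, adjusted p = 0.686). The family sum had the largest of the 4 values, with r 0.43 (permutation p = 0.142, adjusted p = 0.568) and rho 0.36 (permutation p = 0.231, adjusted p = 0.686). Without HET3 and WT4, the samples farthest from the median of the list, r was -0.37 for copy A, -0.29 for copy B, 0.20 for mfap4.8 and 0.14 for the sum. Within the 5 HET samples r was 0.03, 0.12, -0.84 and 0.04 in the same order, and within the 5 WT samples 0.20, 0.31, 0.00 and 0.42, while HOM held too few samples. The 3 HOM samples lay at 0.509, -0.255 and 0.155 on the list mean, inside the span of the other genotypes (-0.628 to 0.71).

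**Figure D5:**
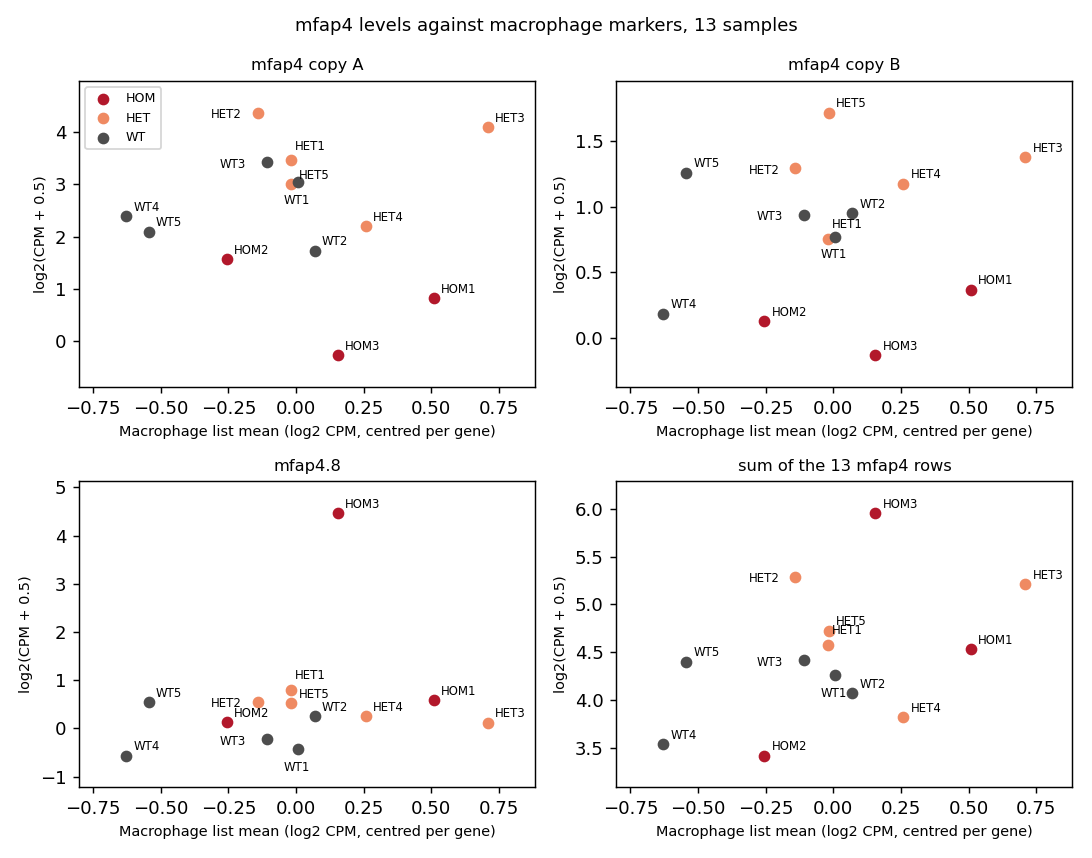
Level of copy A, copy B, mfap4.8 and the family sum, as log2(CPM + 0.5), against the mean of 27 macrophage markers (centred log2 CPM), with 1 point per sample coloured by genotype. The HOM samples lie low for copy A at list means from -0.255 to 0.509, and Pearson's r was between -0.02 and 0.43 in the 4 panels.

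For genes related to the mammalian role of the protein, edgeR called 0, as it did over all genes, and DESeq2 called 0 of either list. Of 15 genes of microfibrils and elastic fibres, all tested, 9 lay above 0 between HOM and WT (60%, beside 43.2% of all genes), with a median of 0.11 for HOM against WT, of 0.07 for HET against WT and of 0.24 for HOM against HET. In these comparisons 0, 2 and 1 of them had an unadjusted p under 0.05 in edgeR, beside 2.73%, 5.49% and 2.74% of all genes. Of 18 tested genes of other fibrinogen-domain proteins, 9 lay above 0 between HOM and WT with a median of -0.01, and 4, 5 and 0 had an unadjusted p under 0.05. Among these were the fibrinogen chains of liver, FGB at -3.87 ± 1.70, fga at -4.47 ± 1.81 and FGG at -4.93 ± 1.88 in HOM against WT. The liver list lay below WT with them, with 14 of 14 genes below 0 (median -4.87). DESeq2 called 6 of the 12 it gave an adjusted p, beside 0.207% of all genes. In HET against WT the liver list also had 14 of 14 genes below 0 (median -4.21). There DESeq2 called 8 of 12 in the list, beside 0.517% of all genes. Its sum in WT was highest in WT1 (3623 CPM) and WT5 (31179 CPM), with 889 CPM in WT2. WT3 (63.4 CPM) and WT4 (201 CPM) lay within the HOM range of 35.7 to 529 CPM.

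The genes most like each copy over the 13 samples, among the 19141 tested, were taken by Spearman's rho of log2(CPM + 0.5) and are given as a description. All share the same libraries and scaling. For copy A they were ING1 (0.92), si:ch211-212i14.4 (0.85), ENSDARG00000102800 (0.84), ENSDARG00000088561 (0.80) and eppk1 (0.80). For copy B they were zgc:56622 (0.96), si:ch211-218g23.6 (0.95), si:ch211-165d12.4 (0.93), ENSDARG00000093345 (0.90) and mia2 (0.88). For mfap4.8 they were ccl34b.1 (0.87), GPR108 (0.84), fynb (0.83), relt (0.83) and cpeb1a (0.82). ccl34b.1 was 1 of the 27 macrophage markers, and GPR108 is the row of gpr108, the gene beside mfap4.11 in the order above. Pearson's r with mfap4.8 was lower, at 0.55 for ccl34b.1 and 0.43 for GPR108. By rho no other mfap4 row was among the 5 most like any of the copies, whereas by Pearson's r mfap4.7 ranked highest for mfap4.8. Within the family, mfap4.8 was most like mfap4.10 (rho 0.69) and mfap4.7 (rho 0.68) and least like mfap4.4 (rho -0.89). Pearson's r between mfap4.8 and mfap4.7 was 0.97, and HOM3 was the highest sample in both. Ranked by Pearson's r in place of rho, 2 of the 5 genes remained for copy A, 1 for copy B and 0 for mfap4.8.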

How the data were processed

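The deposited files were a table of raw read counts and a table named RPKM by the authors. The submitters' processing notes name bcl2fastq 1.8.4, STAR 2.4.1d, featureCounts 1.4.6-p4 and GRCz10. The deposited RPKM values were handled as a score, since each library's own total had been used in only 7.69% of rows, and served only to recover gene lengths. Counts of 19141 genes kept by filterByExpr were fitted in edgeR 4.0.16 (glmQLFit, glmQLFTest, TMM, R 4.3.3), all 13 samples sharing the spread, with two-sided tests, Benjamini-Hochberg adjustment and a threshold of 0.05. The fit was tested on simulated counts. Alternatives were DESeq2 1.42.0, limma 3.58.1 on log2(recomputed RPKM + 0.1), other scalings, no filter, fewer samples and each sample left out. After the data were seen, leaving out samples was added for the family sum. Of the IDs, 81.8% (26269) had a symbol. Named genes were the 3 copies, tert, the other mfap4 rows, macrophage markers and the 5 genes most like each copy. Other genes were named after their values were seen. Members and lists were chosen with earlier results of these data known. Replicates were numbered in record order. Genome and sequences were not used here.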

Additional observations from a re-analysis of the deposited data

Results flagged for a closer look

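Over 28 groups of 5 samples (the 13 mfap4 rows and their sum in HET and in WT), 2 had a sample far from the others by Dixon's test, where chance gives about 1 in 20. mfap4.4 was highest in HET3, at 2.75 CPM, against a HET median of 0.668 CPM. Copy F (ENSDARG00000090557) was highest in WT5, at 3.15 CPM, against a WT median of 0.290 CPM. Copies A and B and mfap4.8 had no such sample in HET or WT, and the 3 HOM samples, HOM3 with its 21.6 CPM of mfap4.8 among them, are too few to be examined this way.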

How the results depend on the processing

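Under the alternatives, 360 values kept their direction and side of the threshold or stayed within the spread between replicates, and the exceptions follow. With each sample left out in turn, the log2 fold change of mfap4.8 ran between 0.72 and 4.51 in HOM against WT, -0.13 and 3.66 in HOM against HET (both lowest without HOM3), and 0.65 and 1.25 in HET against WT (1.25 without WT5). limma on recomputed RPKM gave 2.11 for mfap4.8 between HOM and WT and 1.43 between HOM and HET; the cause was not tested. Copy A ran between -2.76 and -1.65 in HOM against WT and copy B between -1.32 and -0.91. DESeq2 called 40, 105 and 1 genes where edgeR called 0, and 2 of the macrophage list in HET against WT; the cause was not tested. It gave no p for mfap4.7 and mfap4.8. Without the mitochondrially encoded genes the family sum was 45.3 CPM in HET and 28.6 CPM in WT, as the totals are smaller. Pearson's r of copy A with the macrophage list changed sign to 0.069 without scaling and to 0.0707 without HOM3. The family sum averaged 16.4 to 42.1 CPM in HOM with each sample left out. Without scaling, mfap4.6, mfap4.10 and mfap4.11 changed sign in HET against WT and copy C in HOM against HET. With 4 and 5 reads in HOM3, depth limits copies A and B there. No paired analysis was possible because the replicate numbers were given in record order and pair no samples.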
